A study of Mus musculus with 12 samples.

Results

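MTR4 is the RNA helicase that unwinds nuclear transcripts and feeds them to the RNA exosome for decay or trimming. It does not choose its substrates alone. In human cells, where most of these assemblies were described, TRAMP (ZCCHC7 with the poly(A) polymerase PAPD5) acts with MTR4 mainly in the nucleolus, and NEXT (ZCCHC8 and RBM7) targets short nucleoplasmic transcripts such as upstream antisense RNAs. PAXT, built on ZFC3H1 and the tail-binding protein PABPN1, targets polyadenylated nuclear RNAs, and ARS2 (the product of Srrt) and ZC3H18 connect NEXT and PAXT to the RNA cap.

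The mRNAs of MTR4 and 8 partner genes were followed here in mouse oocytes that lack MTR4. The 9 genes were picked by name from 23235 gene symbols. All but Papd7 were picked for their part in these assemblies, and Papd7 was grouped with TRAMP as the close relative of Papd5. The 9 were Skiv2l2 (MTR4 itself, now named Mtrex), Zcchc7, Papd5 (now Tent4b), Papd7 (now Tent4a), Zcchc8, Rbm7, Pabpn1, Srrt and Zc3h18. The groups were Mtr4-null growing oocytes of postnatal day 14, WT growing oocytes of day 14, Mtr4-null germinal vesicle oocytes of day 21 and WT germinal vesicle oocytes of day 21. The labels list 3 libraries for each group, 12 in all, each pooling 10 oocytes, while the series' design text speaks of duplicates. Which part of the gene was deleted, and with which driver, the sources used here do not give, so it is unknown how far reads over Skiv2l2 measure the deletion.

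Each value below is an FPKM, a read count scaled to transcript length and library size, that the authors averaged over the libraries of 1 group. There was 1 such mean per gene and group, so no value has a replicate error, no test was possible, and the table does not show how many reads lie behind a value. Differences between groups are given on the log2(FPKM + 1) scale, which understates folds of genes with low FPKM, and a difference of at least 1, or 2-fold, is called by its size alone. They are set beside the 11913 genes whose FPKM averaged 1 or more across groups, named expressed genes here, which include all 9. In pooled oocytes, fewer oocytes that contain a transcript and less of it per oocyte cannot be told apart.

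Facts of the whole table bear on what follows. All 12 oocyte markers examined exceeded 1 FPKM in every group, with summed levels of 21890 FPKM in Mtr4-null and 22324 FPKM in WT oocytes at day 14, and 13078.5 FPKM in Mtr4-null and 17041 FPKM in WT oocytes at day 21. At day 21 the markers went both ways. Of the 12, 3 were at least 2-fold lower without MTR4 (Gdf9, Nobox and Kit) and 1 higher (Ddx4). Gdf9 was just past 2-fold, at -1.04 on the log2 scale, and its call was not followed under other scalings of the columns. Of expressed genes 25.7% were lower and 20.2% higher. Zp2, Zp3 and Figla also had higher values, within 2-fold. The 12 granulosa markers summed to 53.5 FPKM in Mtr4-null and 62.2 FPKM in WT oocytes at day 14, and to 57.0 FPKM in Mtr4-null and 81.2 FPKM in WT oocytes at day 21, with 5 or 6 of the 12 at 1 FPKM or more in each group, and among them the defining genes Foxl2 and Amh stayed at or below 0.32 FPKM. Other granulosa markers were present or differed: Esr2 lay between 27.9 and 42.9 FPKM, Cyp19a1 stood at 1.48 FPKM in Mtr4-null and 25.3 FPKM in WT oocytes at day 21, and Inha at 10.9 FPKM in Mtr4-null and 1.72 FPKM in WT oocytes at that age. Of 14 theca, stromal, endothelial and blood markers 1 or 2 reached 1 FPKM, their sums lay between 3.47 and 22.8 FPKM, and the haemoglobin genes Hbb-b1 and Hba-a1 were listed at 0. Most of each sum was Pecam1, at 9.82 FPKM in Mtr4-null and 13.2 FPKM in WT oocytes at day 14. At day 21 Pecam1 stood at 2.13 FPKM in Mtr4-null and 20.7 FPKM in WT oocytes, a log2 difference of -2.79. The part of these markers in the differences below was not tested. In the Mtr4-null day 21 column 0.12% of the values above 0 end in the repeating decimals that a mean of 3 values leaves, against 55.4% to 57.4% in the 3 other columns, so that column may average another number of libraries.

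The start regions of Skiv2l2 and Rbm7 are shown because each is shared with another gene whose values are given below. Skiv2l2 and the RNA helicase gene Dhx29 are transcribed away from each other, from starts 300 bases apart in RefSeq and 56 bases apart in GENCODE. Rbm7 and the protein-coding gene Gm5617 are likewise, from starts 13 bases apart in RefSeq and 143 bases apart in GENCODE, both on GRCm38. The start itself thus depends on the annotation. The promoter windows of Skiv2l2 and Rbm7 from RefSeq (GRCm38.p6, 250 bases before to 50 bases after each start, minus strand, 5′ to 3′) are printed below. Capitals mark the 201 bases of the first that also lie in the RefSeq window of Dhx29, and the 112 bases of the second that also lie in the RefSeq window of Gm5617. The Skiv2l2 window is chr13:112927331-112927630 and the Rbm7 window is chr9:48495281-48495580.
Skiv2l2: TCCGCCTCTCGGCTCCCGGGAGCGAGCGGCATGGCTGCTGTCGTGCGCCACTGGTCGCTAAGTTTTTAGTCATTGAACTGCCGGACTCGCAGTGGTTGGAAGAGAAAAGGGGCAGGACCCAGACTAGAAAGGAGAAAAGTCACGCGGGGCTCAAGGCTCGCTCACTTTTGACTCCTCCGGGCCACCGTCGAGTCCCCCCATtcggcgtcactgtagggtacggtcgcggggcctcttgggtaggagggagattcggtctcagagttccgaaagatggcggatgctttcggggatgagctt
Rbm7: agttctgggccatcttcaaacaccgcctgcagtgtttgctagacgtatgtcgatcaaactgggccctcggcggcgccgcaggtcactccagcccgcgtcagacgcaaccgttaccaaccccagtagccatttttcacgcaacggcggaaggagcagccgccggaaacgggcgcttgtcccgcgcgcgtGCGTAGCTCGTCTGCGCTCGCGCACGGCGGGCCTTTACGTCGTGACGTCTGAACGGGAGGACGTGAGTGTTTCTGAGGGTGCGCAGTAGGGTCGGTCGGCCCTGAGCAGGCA

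Without MTR4 the helicase message was low at both ages, 1 cap-linked partner was higher at day 14, and 3 partners were lower at day 21. Of the 9 genes, 1 was at least 2-fold higher at day 14 (Srrt) and 1 lower (Skiv2l2), where 8.1% of expressed genes were higher, 1.55% lower and 9.65% either. At day 21 none was higher and 4 were lower (Skiv2l2, Papd5, Papd7 and Zc3h18), where 20.2% were higher, 25.7% lower and 46% either. Without Skiv2l2, 3 of 8 were lower at day 21, and apart from Skiv2l2 each of those calls depends on the scaling of the columns, as given below. The median log2 difference of the 8 partners was -0.02 at day 14 and -0.43 at day 21, beside 0.052 and -0.27 over all expressed genes.

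Skiv2l2, the targeted gene, stood at 1.57 FPKM in Mtr4-null and 27.6 FPKM in WT oocytes at day 14. At day 21 it stood at 3.86 FPKM in Mtr4-null and 26.3 FPKM in WT oocytes. The Mtr4-null values lay far under the WT values at both ages, with log2 differences of -3.48 and -2.49. Only 0.168% of expressed genes had a lower difference at day 14, and 1.86% at day 21. In Mtr4-null oocytes the level at day 21 was 2.46 times that at day 14, whereas in WT oocytes it was 0.95 times.

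Its neighbour Dhx29 differed little at day 14. Dhx29 stood at 19.9 FPKM in Mtr4-null and 24.3 FPKM in WT oocytes at that age, a log2 difference of -0.28. At day 21 it stood at 3.30 FPKM in Mtr4-null and 19.8 FPKM in WT oocytes, a log2 difference of -2.28. At day 14 only Skiv2l2 of this pair was at least 2-fold lower, and at day 21 both were. Ppap2a (now Plpp1), which meets the 3′ end of Skiv2l2 on the opposite strand, stood at 19.9 FPKM in Mtr4-null and 24.3 FPKM in WT oocytes at day 14, and at 17.4 FPKM in Mtr4-null and 65.9 FPKM in WT oocytes at day 21. Smart-seq2 does not keep the strand, so reads from the stretch that both genes cover may count for either.

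**Figure D1:**
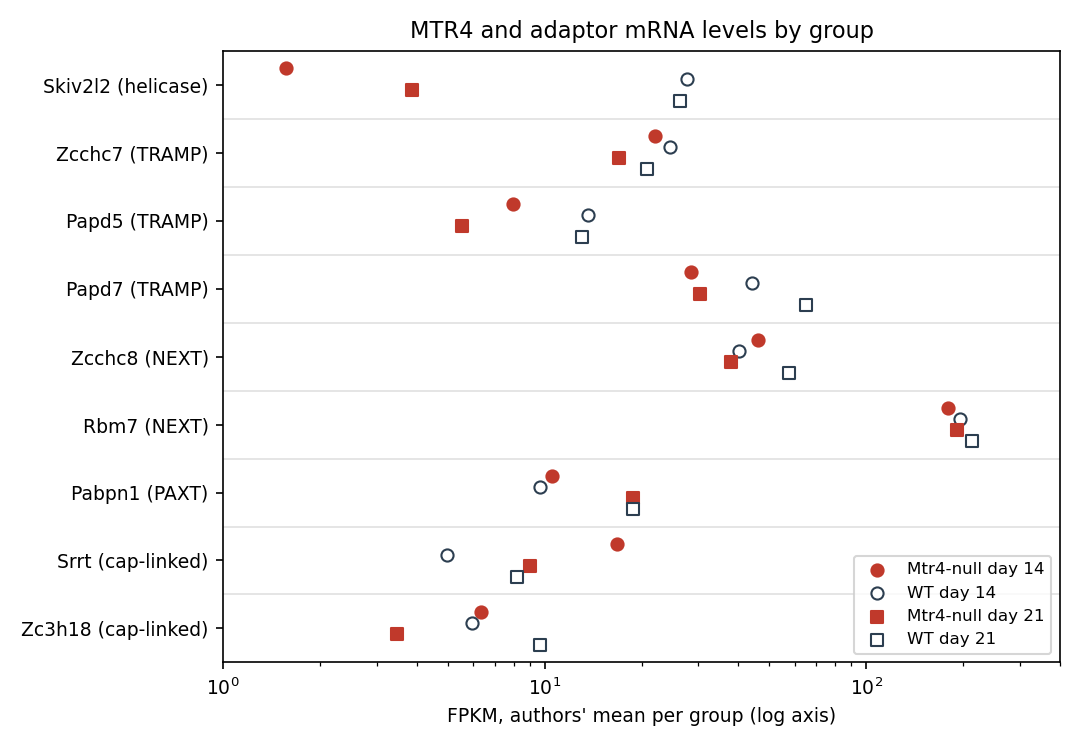
FPKM of each gene (log axis, authors' mean per group) in Mtr4-null (filled) and WT (open) oocytes at day 14 (circles) and day 21 (squares), ordered by complex; 1 value per group, so no error bars. The Mtr4-null points of Skiv2l2 lie at 1.57 FPKM (day 14) and 3.86 FPKM (day 21), and the values of Rbm7 lie closest together on the log axis, between 180 and 213 FPKM.

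Among the TRAMP genes, with Papd7 grouped here as a relative of Papd5, both poly(A) polymerases had lower values without MTR4. The zinc-knuckle partner differed less. Papd5, which adds short oligo(A) tails to nuclear RNA, stood at 7.97 FPKM in Mtr4-null and 13.7 FPKM in WT oocytes at day 14, and at 5.53 FPKM in Mtr4-null and 13.0 FPKM in WT oocytes at day 21. Papd7, its close relative, stood at 28.6 FPKM in Mtr4-null and 44.0 FPKM in WT oocytes at day 14, and at 30.4 FPKM in Mtr4-null and 64.9 FPKM in WT oocytes at day 21. Both were thus lower in the Mtr4-null oocytes at both ages. At day 14 the log2 differences were -0.71 for Papd5 and -0.61 for Papd7, short of 2-fold but among the lowest 3.86% and 5.68% of expressed genes. At day 21 they were -1.10 and -1.07, just past 2-fold. They then ranked less far down, with 22.5% and 23.4% of expressed genes lower still.

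Summed, the FPKM of the 2 polymerases came to 36.5 FPKM in Mtr4-null and 57.7 FPKM in WT oocytes at day 14, a ratio of 0.634, and to 35.9 FPKM in Mtr4-null and 78.0 FPKM in WT oocytes at day 21, a ratio of 0.46. Papd7 was the more abundant per length in all 4 groups, at 3.22 to 5.49 times Papd5. Zcchc7, whose zinc knuckles bind RNA and link the polymerase to MTR4, stood at 22.0 FPKM in Mtr4-null and 24.5 FPKM in WT oocytes at day 14. It stood at 17.1 FPKM in Mtr4-null and 20.8 FPKM in WT oocytes at day 21. Its log2 differences were -0.15 and -0.27, the second ranging from -0.38 to 0.035 over the alternative scalings and pseudocount.

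The NEXT genes were the most abundant of the set together with Papd7, and neither reached 2-fold. Rbm7, the RNA-recognition subunit, stood at 180 FPKM in Mtr4-null and 195 FPKM in WT oocytes at day 14, and at 191 FPKM in Mtr4-null and 213 FPKM in WT oocytes at day 21. The log2 differences were -0.12 and -0.16, the second ranging from -0.26 to 0.17 over the alternatives. Between 94.7% and 95.4% of expressed genes had a lower FPKM than Rbm7 in each group. Zcchc8, the scaffold that holds RBM7 and MTR4, stood at 46.1 FPKM in Mtr4-null and 40.2 FPKM in WT oocytes at day 14, slightly higher, with a log2 difference of 0.19. At day 21 it stood at 37.9 FPKM in Mtr4-null and 57.6 FPKM in WT oocytes, a log2 difference of -0.59. The FPKM of Rbm7 was 3.70 to 5.04 times that of Zcchc8.

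Across the shared start of Rbm7, the neighbour was over 2-fold higher without MTR4 and Rbm7 was not. Gm5617 stood at 74.4 FPKM in Mtr4-null and 16.1 FPKM in WT oocytes at day 14, 4.61 times higher. It stood at 162 FPKM in Mtr4-null and 17.2 FPKM in WT oocytes at day 21, 9.45 times higher. The log2 differences of Gm5617 were 2.14 and 3.17. The third such pair is Papd7 with Nsun2, an RNA cytosine methyltransferase gene on the opposite strand. These genes overlap at their starts, which lie 871 bases apart in GENCODE. Nsun2 stood at 13.5 FPKM in Mtr4-null and 9.99 FPKM in WT oocytes at day 14, and at 6.46 FPKM in Mtr4-null and 15.2 FPKM in WT oocytes at day 21, so its log2 differences of 0.40 and -1.12 had opposite signs where both of Papd7 were negative.

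**Figure D2:**
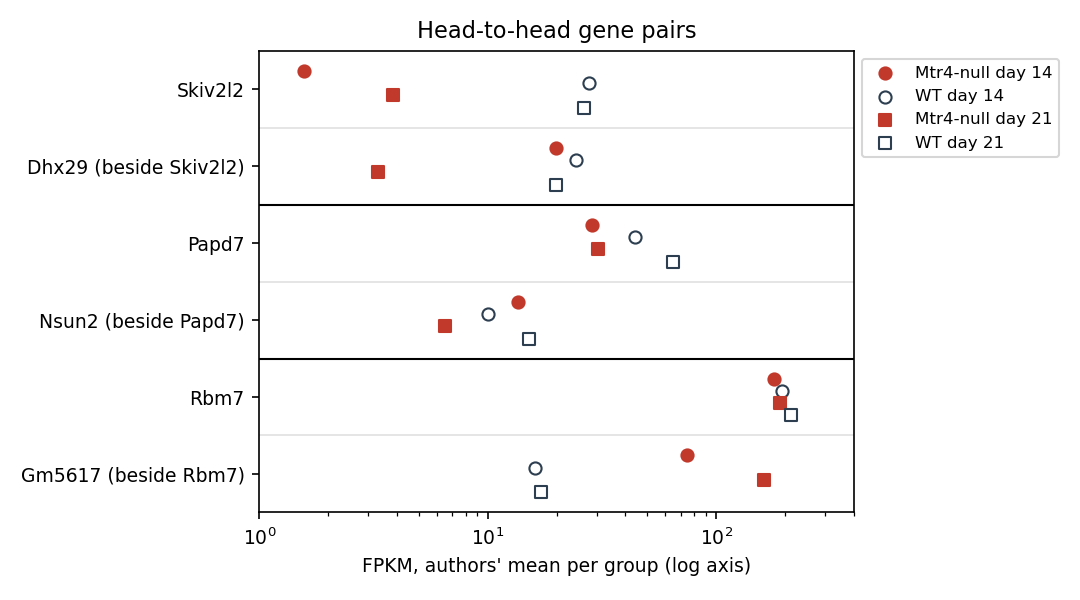
FPKM (log axis, authors' mean per group) of 3 genes of the set and of the gene that starts beside each on the opposite strand, in Mtr4-null (filled) and WT (open) oocytes at day 14 (circles) and day 21 (squares). The Mtr4-null day 21 point of Dhx29 (3.30 FPKM) lies apart from its other 3 points, and Gm5617 stands at 74.4 and 162 FPKM without MTR4 while Rbm7 keeps a narrow range.

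Pabpn1, which coats nuclear poly(A) tails and belongs to PAXT, had higher values at day 21 than at day 14 in both genotypes. It stood at 10.5 FPKM in Mtr4-null and 9.63 FPKM in WT oocytes at day 14. It stood at 18.8 FPKM in Mtr4-null and 18.8 FPKM in WT oocytes at day 21. The genotype differences were 0.12 and 0.0038 on the log2 scale, with no firm sign, since they ranged from -0.093 to 0.13 and from -0.099 to 0.31 over the alternatives. Day 21 exceeded day 14 by 0.78 in Mtr4-null and by 0.89 in WT oocytes, and in WT 97.1% of expressed genes had a lower difference with age. GENCODE places Gm20521 over Pabpn1 on the same strand, so the Pabpn1 value may include reads of that gene.

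Srrt was the one gene of the set that was at least 2-fold higher without MTR4, which it was at day 14; whether the ages differ was not tested. Srrt encodes ARS2, the scaffold between the cap-binding complex and RNA decay factors. It stood at 16.8 FPKM in Mtr4-null and 4.98 FPKM in WT oocytes at day 14, 3.37 times higher, with a log2 difference of 1.57 that exceeded those of 95.9% of expressed genes. At day 21 it stood at 9.01 FPKM in Mtr4-null and 8.20 FPKM in WT oocytes, a log2 difference of 0.12. Day 21 minus day 14 was -0.83 in Mtr4-null and 0.62 in WT oocytes on the log2 scale.

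Zc3h18, a zinc-finger protein gene whose product joins the capped RNA to NEXT and PAXT, had the reverse timing. It stood at 6.33 FPKM in Mtr4-null and 5.94 FPKM in WT oocytes at day 14, a log2 difference of 0.079 that ranged from -0.15 to 0.092 over the alternatives. At day 21 it stood at 3.47 FPKM in Mtr4-null and 9.64 FPKM in WT oocytes, a log2 difference of -1.25. Day 21 minus day 14 was -0.71 in Mtr4-null and 0.62 in WT oocytes. GENCODE places Gm20388 over Zc3h18 on the same strand, so its value may include reads of that gene. For Srrt and Zc3h18 the day 21 genotype difference minus the day 14 one was -1.45 and -1.33. These were the 2 of the 9 past 2-fold in that comparison, in which 22.4% of expressed genes were lower, 13.6% higher and 36% either. Its split of 1618 higher and 2672 lower depended on the scaling, with 2090 and 1760 under median-of-ratios factors, 2360 and 1474 under such factors from the expressed genes, and 1952 and 2053 after quantile normalization. In the same comparison Skiv2l2 stood at 0.99, just short of 2-fold, and reached up to 1.32 over the alternatives. Zc3h18 ranged from -1.54 to -0.98, the last short of 2-fold.

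**Figure D3:**
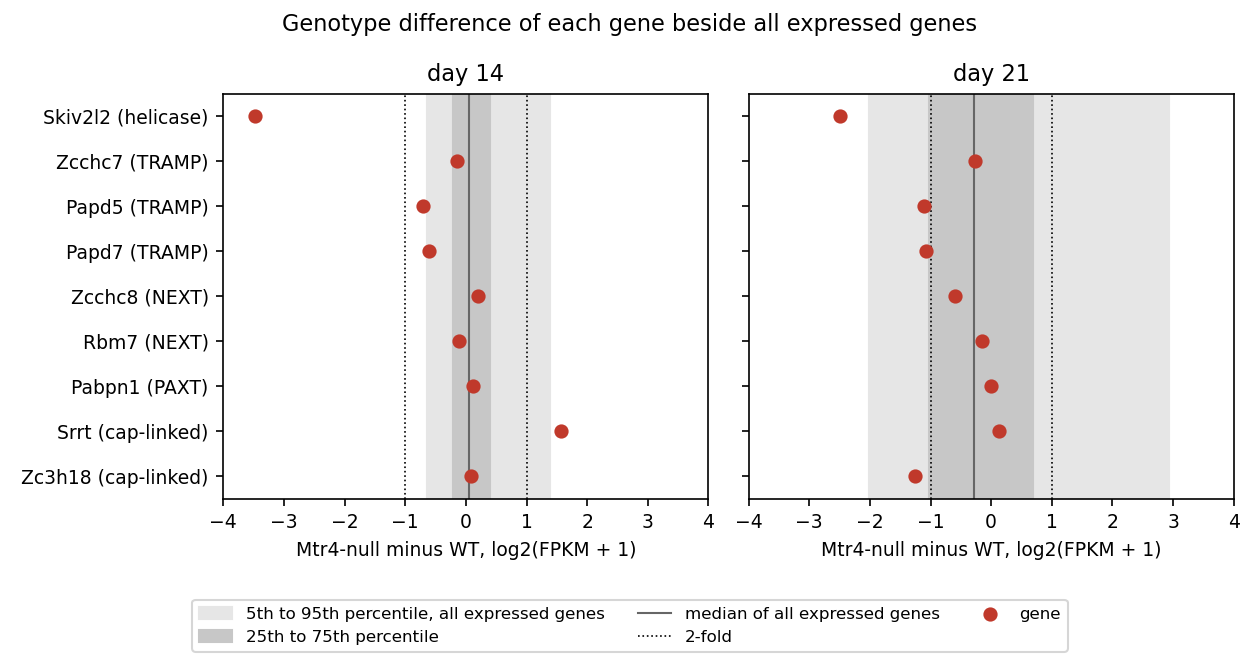
Mtr4-null minus WT difference of each gene on the log2(FPKM + 1) scale at day 14 (left) and day 21 (right), with the 5th to 95th and 25th to 75th percentiles and the median of the 11913 expressed genes as grey bands and a line, and dotted lines at 2-fold. At day 14 Skiv2l2 and Papd5 lie below the 5th percentile and Srrt above the 95th, and at day 21 Skiv2l2 alone lies outside that range.

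The day 21 calls other than Skiv2l2 depended on how the columns were scaled. The median of all expressed genes at day 21 was -0.27 as deposited and 0 when the columns were scaled by median-of-ratios factors taken over those genes. Relative to the deposited median, Papd5 stood at -0.83, Papd7 at -0.80, Zc3h18 at -0.98 and Zcchc8 at -0.31, while Srrt stood at 0.40, Pabpn1 at 0.28 and Rbm7 at 0.12. The all-gene median ranged from -0.095 to 0.063 at day 14 and from -0.39 to 0 at day 21 over the alternatives. Median-of-ratios factors over every gene above 0 in all columns gave -0.98 for Papd5 and -0.93 for Papd7, and quantile normalization gave -0.86 for Papd7. With the factors of the expressed genes Papd5, Papd7 and Zc3h18 came to -0.82, -0.76 and -0.99, all short of 2-fold, and 2895 genes were higher and 2155 lower rather than 2410 and 3067. At day 14 quantile normalization gave 708 genes higher and 321 lower rather than 965 and 185, and the calls of Srrt and Skiv2l2 held in all 5 alternatives that changed the scaling or the pseudocount.

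With age, none of the 9 genes reached 2-fold in either genotype on the log2(FPKM + 1) scale. The plain FPKM ratio of Skiv2l2 in Mtr4-null oocytes was 2.46, from low values that the pseudocount of 1 draws together. In Mtr4-null oocytes 9.08% of expressed genes were at least 2-fold higher at day 21, 18.6% lower and 27.7% either, and in WT oocytes 2.02% were higher, 3.32% lower and 5.35% either. The Mtr4-null split of 1082 higher and 2216 lower turned to 1553 and 1264 with median-of-ratios factors, 1813 and 1044 with those of the expressed genes and 1483 and 1595 after quantile normalization. In Mtr4-null oocytes the differences were 0.92 for Skiv2l2 and 0.78 for Pabpn1, which passed 2-fold when the columns were scaled by either median-of-ratios factor or by quantiles. Those of Rbm7, Papd7, Zcchc8, Zcchc7 and Papd5 in these oocytes were 0.091, 0.085, -0.27, -0.35 and -0.46, of which only the last kept its sign under every alternative. The WT values of Pabpn1, Srrt, Zc3h18, Papd7 and Zcchc8 were higher at day 21 by 0.89, 0.62, 0.62, 0.55 and 0.51, and those of Rbm7, Papd5, Skiv2l2 and Zcchc7 differed by 0.13, -0.062, -0.071 and -0.22. These comparisons use the same 4 columns as those of genotype and are not independent of them.

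**Figure D4:**
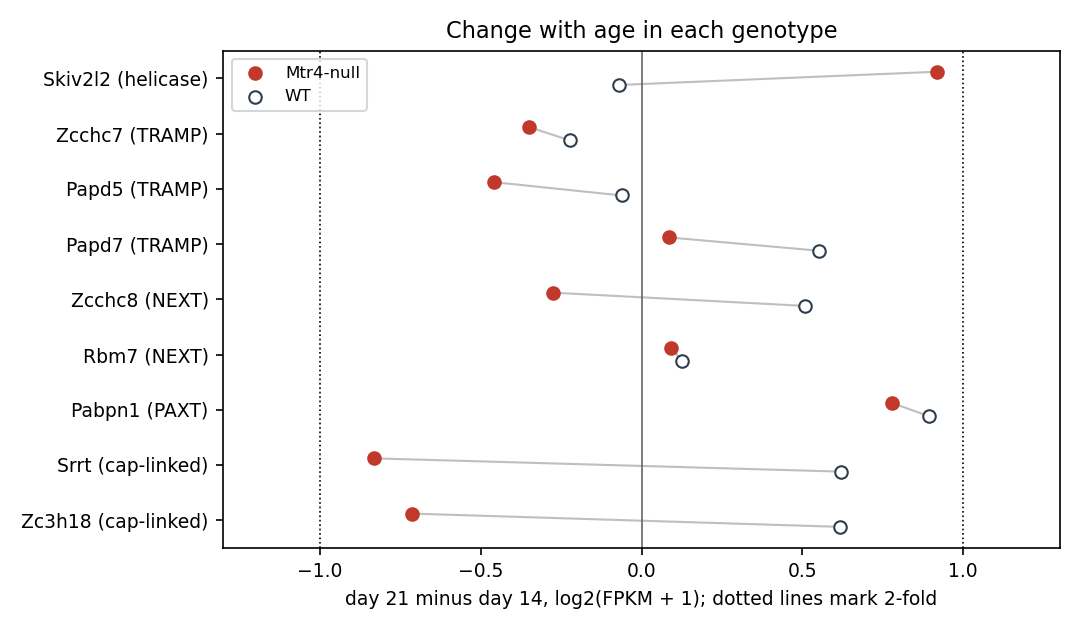
Day 21 minus day 14 difference of each gene on the log2(FPKM + 1) scale in Mtr4-null (filled) and WT (open) oocytes, with dotted lines at 2-fold. The Mtr4-null points of Srrt and Zc3h18 lie at -0.83 and -0.71 and the WT points at 0.62, while those of Pabpn1 and Rbm7 lie close together.

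The order of the levels, which FPKM allow because they are per length, was led by Rbm7 in every group. In Mtr4-null oocytes at day 14 the order ran Rbm7, Zcchc8, Papd7, Zcchc7, Srrt, Pabpn1, Papd5, Zc3h18 and Skiv2l2, with 180 FPKM at the top and 1.57 FPKM at the bottom. In WT oocytes at day 14 it ran Rbm7, Papd7, Zcchc8, Skiv2l2, Zcchc7, Papd5, Pabpn1, Zc3h18 and Srrt, with 195 FPKM at the top and 4.98 FPKM at the bottom. In Mtr4-null oocytes at day 21 Skiv2l2 was 8th, ahead of Zc3h18. In WT oocytes at day 21 the order was that of WT day 14 but for Pabpn1, which preceded Papd5. No spread between libraries is known, so neighbours in this order, such as Papd7 and Zcchc8 at 44.0 and 40.2 FPKM in WT at day 14, cannot be ranked. Relative to the helicase, the FPKM of Rbm7 was 114 times that of Skiv2l2 at day 14 in Mtr4-null oocytes, against 7.06 times in WT oocytes, and 49.5 times at day 21 in Mtr4-null oocytes, against 8.12 times in WT oocytes. Skiv2l2 is the targeted gene, so these ratios mainly restate its low Mtr4-null values.

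Among 12 further factors that bind MTR4, ARS2 or the cap, 1 was at least 2-fold higher at day 14 and 2 at day 21, where 8.1% and 20.2% of expressed genes were higher. None was lower, where 1.55% and 25.7% of expressed genes were, and the list had median log2 differences of 0.37 and 0.25 beside 0.052 and -0.27 over all expressed genes. 1200014J11Rik (now Ncbp3), a proposed cap-binding protein gene, stood at 101 FPKM in Mtr4-null and 11.8 FPKM in WT oocytes at day 14, and at 675 FPKM in Mtr4-null and 15.6 FPKM in WT oocytes at day 21. Ncbp1, the large subunit of the nuclear cap-binding complex, stood at 11.6 FPKM in Mtr4-null and 9.25 FPKM in WT oocytes at day 14, and at 16.9 FPKM in Mtr4-null and 4.23 FPKM in WT oocytes at day 21. Zfc3h1, the core of PAXT, did not reach 2-fold. It stood at 5.16 FPKM in Mtr4-null and 2.92 FPKM in WT oocytes at day 14, and at 4.56 FPKM in Mtr4-null and 2.53 FPKM in WT oocytes at day 21, near 0.65 and 0.66 on the log2 scale. Ncbp1 overlaps Tstd2 and Xpa on the opposite strand, and Zfc3h1 overlaps A130012E19Rik, so their values may include reads of those genes.

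Among 13 subunits and cofactors of the nuclear exosome, the machine MTR4 serves, 1 was higher and none lower at day 14, and 3 were higher and 2 lower at day 21. Of expressed genes 8.1% were higher and 1.55% lower at day 14, and 20.2% higher and 25.7% lower at day 21. The list's median log2 differences were -0.013 and -0.21, beside 0.052 and -0.27 over all expressed genes. Exosc2, a cap subunit of the core, stood at 233 FPKM in Mtr4-null and 23.8 FPKM in WT oocytes at day 14, and at 913 FPKM in Mtr4-null and 20.9 FPKM in WT oocytes at day 21. Exosc6, a ring subunit, stood at 3.28 FPKM in Mtr4-null and 2.27 FPKM in WT oocytes at day 14, and at 19.98 FPKM in Mtr4-null and 2.34 FPKM in WT oocytes at day 21. C1d, an exosome cofactor gene, stood at 20.9 FPKM in Mtr4-null and 5.66 FPKM in WT oocytes at day 21. Exosc8, another ring subunit, was lower, at 42.9 FPKM in Mtr4-null and 91.3 FPKM in WT oocytes at day 21. This call was lost under either median-of-ratios scaling and under quantile normalization, with each of which none of the 13 was lower. Exosc6 overlaps Aars on the same strand and Exosc2 and Exosc8 overlap Gm13427 and Supt20 on the opposite strand.

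The polymerases, tail-binding proteins and factors acting on the latter, outside the MTR4 complexes, were within 2-fold at day 14 and lower in part at day 21. Of 12 poly(A) and nucleotidyl polymerase genes besides Papd5 and Papd7, 8 were expressed. None differed 2-fold at day 14, and 4 were lower and none higher at day 21. Under either median-of-ratios scaling 1 was higher, and with a pseudocount of 0.1 5 were lower and 1 higher. At day 21 25.7% of expressed genes were lower and 20.2% higher. The list's median log2 difference at that age was -1.15, beside -0.27 over all expressed genes. Fam46b, of the TENT5 family of cytoplasmic poly(A) polymerases, stood at 19.2 FPKM in Mtr4-null and 120 FPKM in WT oocytes at day 21. Fam46c, its relative, stood at 159 FPKM in Mtr4-null and 513 FPKM in WT oocytes. Papolg, a nuclear poly(A) polymerase gene, stood at 10.3 FPKM in Mtr4-null and 40.5 FPKM in WT oocytes, and the mitochondrial Mtpap at 30.2 FPKM in Mtr4-null and 78.3 FPKM in WT oocytes.

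Of 12 genes for poly(A)-binding proteins, other than Pabpn1, and for factors acting on them, 8 were expressed. At day 21, 6 of the 8 were lower, among them Paip1, Paip2 and Paip2b, which act on poly(A)-binding protein rather than bind the tail. Pabpc1, a poly(A)-binding protein gene, was the 1 higher, at 28.1 FPKM in Mtr4-null and 9.32 FPKM in WT oocytes. Of expressed genes 25.7% were lower and 20.2% higher at that age. The list's median log2 difference was then -1.65, beside -0.27 over all expressed genes, and none of the 8 had differed 2-fold at day 14. Pabpc1l, the oocyte form of cytoplasmic poly(A)-binding protein, stood at 39.2 FPKM in Mtr4-null and 154 FPKM in WT oocytes at day 21. Paip1, which helps poly(A)-binding protein in translation, stood at 87.0 FPKM in Mtr4-null and 285 FPKM in WT oocytes. Paip2, an inhibitor of that protein, stood at 169 FPKM in Mtr4-null and 546.5 FPKM in WT oocytes, and its relative Paip2b at 15.3 FPKM in Mtr4-null and 89.6 FPKM in WT oocytes. The summed oocyte markers were lower at day 21 without MTR4 as well, though single markers went both ways, as given above. The part of these markers in these differences was not tested.

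Of 6 other genes of the Ski2-like helicase family, to which MTR4 belongs, 4 were expressed. None differed 2-fold at day 14 and 2 were lower at day 21, or none under the median-of-ratios factors of the expressed genes, where 25.7% of all expressed genes were lower as deposited. The median log2 difference of the 4 at day 21 was -0.48, beside -0.27 over all expressed genes. Snrnp200, the spliceosomal helicase gene, stood at 4.73 FPKM in Mtr4-null and 12.03 FPKM in WT oocytes at day 21. Helq, a DNA helicase gene, stood at 49.3 FPKM in Mtr4-null and 42.8 FPKM in WT oocytes.

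**Figure D5:**
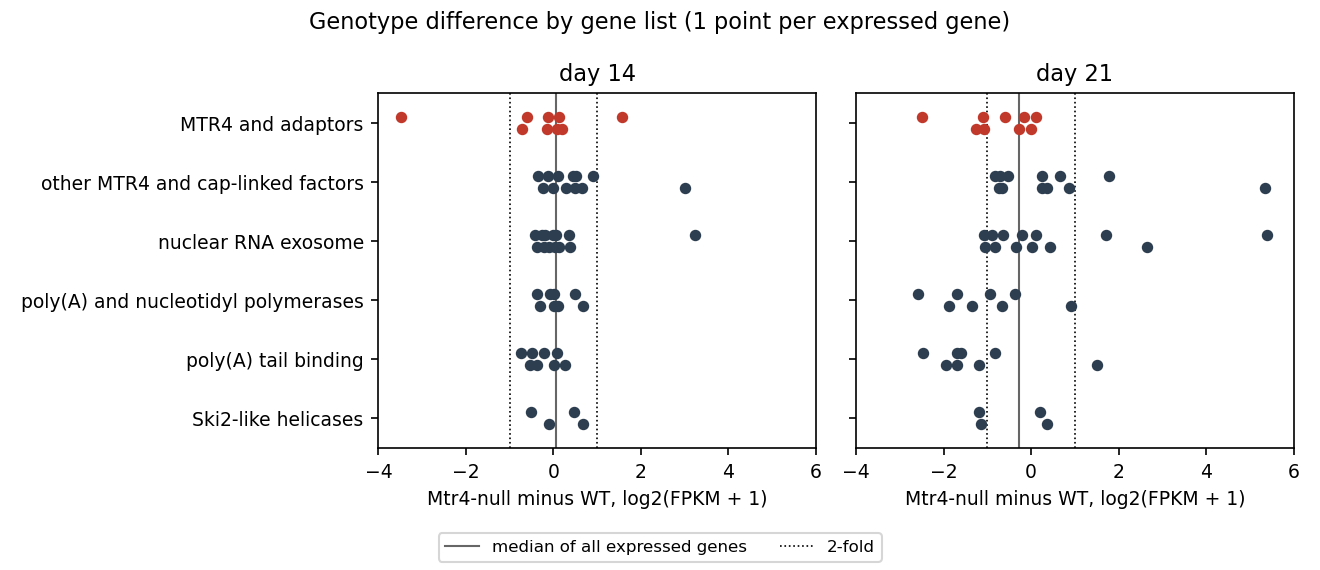
Mtr4-null minus WT differences on the log2(FPKM + 1) scale at day 14 (left) and day 21 (right), with 1 point per expressed gene, for the 9 genes (red) and 5 lists of related factors; the solid line is the median of all expressed genes and dotted lines mark 2-fold. At day 14 the points beyond 2-fold are Skiv2l2, Srrt, 1200014J11Rik and Exosc2. At day 21 the polymerase list and the tail-binding list, which includes the Paip genes, have medians of -1.15 and -1.65.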

How the data were processed

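The submitters' processing notes name Cufflinks 2.2.1, TopHat2 2.1.1 and, as genome build, mm9, without saying which step each served. Libraries were made by Smart-seq2 from lysed oocytes, per the labels' protocols. The deposited table holds FPKM values, which the authors averaged into 4 columns, 1 per group, so every comparison is by size with no test. Log2 differences with a pseudocount of 1, the 2-fold rule and all counts were computed here with pandas 2.3.3 and numpy 2.4.6, for genes whose FPKM averaged 1 or more, after the code was checked on simulated columns. Nothing says whether the libraries of a group came from separate animals.

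The 9 genes and the lists were chosen with earlier results of these data known. In each list up to 4 genes with the largest genotype differences of at least 2-fold and at least 5 FPKM are named, or the most abundant to make 2, and Zfc3h1 always. Pabpc1 is named besides these. Older symbols were matched through RefSeq synonyms, which was needed for 3 of the 9. Neighbours within 2000 bases came from GENCODE vM21 and promoters from RefSeq, both on GRCm38, and serve for names, order and sequence only, since the authors' build was mm9. Of the 9 genes, 6 are overlapped by another annotated gene, so reads of shared stretches may count for either.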

Additional observations from a re-analysis of the deposited data

Results flagged for a closer look

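As deposited, the genotype differences of 2 genes pointed in opposite directions at the 2 ages. The median over all expressed genes also changed sign, from 0.052 at day 14 to -0.27 at day 21. The share of expressed genes that did so was not counted, so this is not a trait shown to be particular to the 2. Zcchc8 differed by 0.19 on the log2 scale at day 14 and by -0.59 at day 21, and Zc3h18 by 0.079 at day 14 and by -1.25 at day 21. Whether the ages differ was not tested, since each group has 1 mean. The day 14 difference of Zc3h18 ranged from -0.15 to 0.092 over the alternatives and so has no firm sign, while that of Zcchc8 stayed between 0.046 and 0.20.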

How the results depend on the processing

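No paired analysis was possible because the columns are group means and carry no replicate numbers, and for the same reason no library could be left out. Of the 18 genotype differences of the 9 genes, 13 kept their sign under all 5 alternatives to scaling or pseudocount. Those that did not are Pabpn1 at both ages, Zc3h18 at day 14, and Zcchc7 and Rbm7 at day 21, all small. No called difference of the 9 genes reversed. With a pseudocount of 0.1, 334 rather than 185 genes were lower at day 14, the WT age counts were 447 higher and 835 lower rather than 241 and 396, and Skiv2l2 passed 2-fold with age in Mtr4-null oocytes (1 gene rather than 0). Median-of-ratios scaling over genes above 0 in every column gave 2 of the 9 genes lower at day 21 rather than 4, and over the expressed genes, an alternative added after the data were seen, 1. Under either scaling, and under quantile normalization, 2 of the 9 were higher with age in Mtr4-null oocytes rather than 0. Counts of genes lower with age in Mtr4-null oocytes were 1264 and 1044 under the 2 scalings rather than 2216, and 1813 were higher under the second rather than 1082. For the change in the genotype difference from day 14 to day 21, the lower counts were 1760 and 1474 rather than 2672, and under the second 1 of the 9 genes was lower rather than 2. Skiv2l2 was the 1 gene higher there under each alternative to scaling or pseudocount. Quantile normalization gave 321 genes lower at day 14. A minimum mean FPKM of 5 leaves 8189 genes rather than 11913, so its counts are over fewer genes. With it, higher counts were 1447 at day 21, 695 and 133 with age in Mtr4-null and WT oocytes, and 1042 for the change between ages. The causes of these shifts were not tested. The precision that library depth allows is unknown.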

Other observations

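Ufsp1 and Ache, beside Srrt, were at least 2-fold higher without MTR4 at both ages, where 8.1% of expressed genes were higher at day 14 and 20.2% at day 21. Srrt itself was so at day 14 only. Ufsp1, which encodes a protease of the UFM1 pathway, stood at 10.0 FPKM in Mtr4-null and 3.42 FPKM in WT oocytes at day 14, and at 12.8 FPKM in Mtr4-null and 2.96 FPKM in WT oocytes at day 21. Ache, the acetylcholinesterase gene, also beside Srrt, stood at 1.76 and 6.81 FPKM in Mtr4-null oocytes of day 14 and day 21 and was listed at 0 in WT oocytes of both ages. Trip6, beside Srrt on the same strand, stood at 1.68 FPKM in Mtr4-null and 0.702 FPKM in WT oocytes at day 14. Its log2 differences of 0.65 at day 14 and 0.51 at day 21 were short of 2-fold and came from low values.

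Over the 4 groups, the genes nearest in pattern to Skiv2l2 among 8188 with a mean FPKM of at least 5 were Fam162b, Slc6a15, Nmu, 2310069G16Rik and Defb41, at Euclidean distances of 1.18 to 1.36 on the centred log2 scale. With a pseudocount of 0.1, 3 of these 5 were shared. All 5 had higher WT values at day 21 than at day 14, which Skiv2l2 did not. For Srrt the nearest were Mageh1 and Ccdc47, at 0.29 and 0.38, and for Zc3h18 Hibadh and Sh3yl1, at 0.090 and 0.096. Zcchc8 lay nearest to Rcc1 and Bmpr1b, at 0.0096 and 0.035, Papd5 to 0910001L09Rik and Arl2, at 0.078 and 0.087, and Papd7 to Arl8a and Awat2, at 0.033 and 0.072. Zcchc7 lay nearest to Cops3 and Gm17830, Rbm7 to Mdh1 and Ndufa3, and Pabpn1 to Hmga1 and Sepsecs. Likeness over 4 values is a description of these means.

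The RefSeq promoter windows of the 9 genes held 14 to 54 CpG dinucleotides, against a median of 13 over 17492 protein-coding genes, with Papd7 and Papd5 highest at 54 and 44. Zcchc8 and Srrt, at 14 and 15, exceeded only 50.5% and 52.6% of those windows. The 17492 genes were not limited to the expressed genes. Of 4 motifs searched on both strands, each occurred in 2 of the 9 windows. AAGATGGC (YY1) occurred in those of Skiv2l2 and Rbm7 and in 3.22% of all windows. CCGGAAG (ETS) occurred in those of Zcchc7 and Zc3h18 and in 11.9% of all windows. TGCGCA (NRF1) and TGACGT (the cAMP response element) both occurred in those of Rbm7 and Zc3h18, and in 10.1% and 8.76% of all windows. No matches of different motifs overlapped in these windows. A match is a description of these letters, not of binding.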
